A study of Mus musculus with 12 samples.

Results

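Wnt target genes that are well known in colorectal cancer were followed together with Myc in colorectal tumours of mice, grown in the liver. The 10 genes are Axin2, Lgr5, Ascl2, Nkd1, Notum, Myc, Tcf7, Lef1, Sp5 and Rnf43, chosen by name and not by their values. Of these, 9 had an array row that the annotation assigns to that gene alone, among 22180 such genes in all, and Tcf7 was not analysed here. The test took genes that exceeded 4.93 on the log2 scale, the median over all rows and arrays, on at least 3 of the 12 arrays. Axin2, Myc, Lef1, Sp5 and Rnf43 passed, which makes 5 members among 13286 tested genes. Lgr5, Ascl2, Nkd1 and Notum lay below that limit on nearly every array and are given as values only. All levels below are log2 expression values as deposited, and all differences are differences of such values.

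Each of the 4 groups held 3 arrays. In the first, tumours came from fatty liver under treatment with anti-VEGF, an agent against vascular endothelial growth factor, the main signal for new blood vessels. In the second they came from healthy liver under anti-VEGF. The remaining pair came from fatty and from healthy liver under vehicle. Tissue was taken from 3 mice per group per the series' design text, and whether every array stands for a mouse of its own was not tested beyond the array comparison given below. The labels give no cell line, strain, age, diet or antibody name, and how the liver was made fatty is likewise not stated in the sources used here.

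Wnt proteins bind frizzled receptors and their co-receptors on the cell surface. Binding stops the destruction complex, built on APC, axin and GSK3, from degrading β-catenin. β-catenin then enters the nucleus and joins the TCF/LEF factors on DNA, where it turns on target genes. Colorectal cancers commonly carry mutations that keep β-catenin stable without a Wnt signal. Several targets act back on the pathway: Axin2, Nkd1, Notum and Rnf43 dampen it. Lgr5 and Ascl2 mark intestinal stem cells, and Myc drives ribosome production and growth. Tcf7 and Lef1 are also made by T lymphocytes.

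The promoters of the members differed in whether they held the letters that TCF/LEF factors bind. RefSeq (build GRCm38.p6) gave windows of 250 bases before to 50 bases after a gene's start for 7 members, 12 windows in all. The TCF/LEF words searched, on both strands, were CTTTGAA, then CTTTGAT, then CTTTGTA, and CTTTGTT, and the E-box bound by Myc and its partners was CACGTG. Any TCF/LEF word was present in 16.88% of all 32851 windows of this length in the RefSeq table, and the E-box in 7.15%. Words of the pair of motifs did not overlap each other in the members. Among the members, only Sp5 and 1 of the 4 Lef1 windows held a TCF/LEF word, and that Lef1 window also held the E-box. These 2 of the 12 windows with a TCF/LEF word lie near the share of all windows. The windows of Sp5, of Lef1 and the first of the pair of Rnf43 windows are printed in their reading direction, because Lef1 and Rnf43 are members whose level differed between livers and Sp5 holds the most words. Capitals mark the words found, and the Rnf43 window has none. Sp5 lies on the plus strand at chr2:70474673-70474972, the Lef1 window on the plus strand at chr3:131156044-131156343, and the Rnf43 window on the plus strand at chr11:87662837-87663136.
Sp5: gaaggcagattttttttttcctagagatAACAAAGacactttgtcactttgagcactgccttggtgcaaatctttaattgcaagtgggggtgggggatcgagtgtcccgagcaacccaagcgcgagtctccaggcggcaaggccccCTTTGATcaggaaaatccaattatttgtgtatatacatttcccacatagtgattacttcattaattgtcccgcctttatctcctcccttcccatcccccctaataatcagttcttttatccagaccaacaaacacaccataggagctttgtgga
Lef1: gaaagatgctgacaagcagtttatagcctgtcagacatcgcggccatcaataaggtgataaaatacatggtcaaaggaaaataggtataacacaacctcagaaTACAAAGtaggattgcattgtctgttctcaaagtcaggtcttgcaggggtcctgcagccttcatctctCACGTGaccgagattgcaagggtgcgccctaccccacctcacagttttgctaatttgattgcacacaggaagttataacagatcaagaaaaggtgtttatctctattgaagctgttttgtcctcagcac
Rnf43: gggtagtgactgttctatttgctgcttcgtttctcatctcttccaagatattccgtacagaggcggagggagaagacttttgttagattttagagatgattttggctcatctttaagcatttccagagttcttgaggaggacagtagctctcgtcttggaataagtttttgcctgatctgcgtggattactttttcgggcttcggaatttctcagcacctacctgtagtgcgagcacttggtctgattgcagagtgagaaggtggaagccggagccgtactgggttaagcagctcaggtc
In Sp5, AACAAAG, which is a TCF/LEF word read on the other strand, began at position -222 from the start and CTTTGAT at -104. In the Lef1 window, TACAAAG, again a word of the other strand, began at -147 and CACGTG at -79. The windows of Axin2, Ascl2, Nkd1 and Tcf7, the other Rnf43 window and the other 3 Lef1 windows held neither motif. A match describes these letters only.

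The tissue carried few transcripts that define colon epithelium. Of the 12 colon markers, 7 lay below the limit on every array, among them Vil1, Krt20 and Cdx1. Another 4 passed the filter, among them Cdx2, which was above the limit on 4 arrays and reached 5.16. The epithelial adhesion gene Epcam was below the limit on all 12 arrays. The keratin genes Krt8, at 9.12 to 10.82, and Krt18 were above it on every array. Of the 15 hepatocyte markers, 8 lay below it on every array, among them Alb. Apoa1, at 4.97 to 5.57, and Ttr, at 5.36 to 5.71, were above it on all 12 arrays. Among the pericentral hepatocyte genes, Cyp2e1 was below it and Glul, at 8.27 to 9.64, above it on all 12 arrays. Within groups, vehicle arrays 1 and 3 of healthy liver, all 3 anti-VEGF arrays of healthy liver, and vehicle arrays 1 and 3 of fatty liver were nearly alike. The standard deviation (SD) of their difference over tested genes was 0.148 to 0.163, against 0.391 to 0.636 for the other pairs within groups. Vehicle array 2 of healthy liver stood apart by its endothelial list mean of 9.17 (5.82 on each of the other vehicle arrays of that liver). In fatty liver, anti-VEGF array 3 stood apart by its NK cell list mean of 5.26, against 8.48 and 7.73 on the other anti-VEGF arrays of that liver. Xist was above the limit on 4 vehicle arrays, arrays 1 and 3 of each liver, and on no anti-VEGF array. Xist and Y-linked genes mark opposite sexes, so a mean of both cancels in part and is no measure of sex. Xist was 3.89 to 4.32 on every anti-VEGF array. The mean of Xist and 3 Y-linked genes was 6.37 to 7.06 on these arrays in fatty liver, against 4.59 to 4.83 in healthy liver. That gap thus lies in the Y-linked genes. On the vehicle arrays of fatty liver Xist was 10.58, 4.27 and 10.45, and the mean 5.10, 7.16 and 5.52. On those of healthy liver Xist was 8.10, 4.03 and 8.43, and the mean 4.89, 6.10 and 4.91. The part of sex-linked differences between arrays in the results below was not tested.

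Between fatty and healthy liver, Myc and Rnf43 fell under both treatments, Lef1 rose under vehicle, and Axin2 and Sp5 passed in neither comparison. Myc was lower by 0.62 under vehicle and Rnf43 by 0.77, while Lef1 was higher by 0.93. Lef1 passed the filter only through its fatty liver arrays, which favours a rise. Under anti-VEGF the differences were -0.74 for Myc and -1.03 for Rnf43. Under vehicle 3 of the 5 tested members passed an adjusted p of 0.05 in limma, 1 higher and 2 lower, where 49.6% of all tested genes passed, 19.2% higher and 30.4% lower. Under anti-VEGF 2 of 5 passed, both lower, against 45.8% of all tested genes, 18.2% higher and 27.6% lower. The share of members called thus lay near that of all genes in both comparisons. The median difference of all tested genes was -0.12 under vehicle and -0.13 under anti-VEGF, and the differences of the members are given without subtracting it. With nearly alike arrays averaged, no member passed: under vehicle the adjusted p was 0.0919 for Myc, 0.086 for Lef1 and 0.151 for Rnf43, and under anti-VEGF 0.153 for Myc and 0.184 for Rnf43. In that setting 5.43% of all tested genes passed under vehicle and 3.84% under anti-VEGF. With the 4 vehicle arrays high in Xist left out, which leaves 1 array per liver under vehicle, each assumed to vary like the other groups, Myc (-0.89, adjusted p = 0.0296) and Lef1 (1.36, adjusted p = 0.0452) passed under vehicle and Rnf43 (-0.83, adjusted p = 0.13) did not, where 7.96% of all tested genes passed. No member passed in either comparison of anti-VEGF with vehicle.

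**Figure D1:**
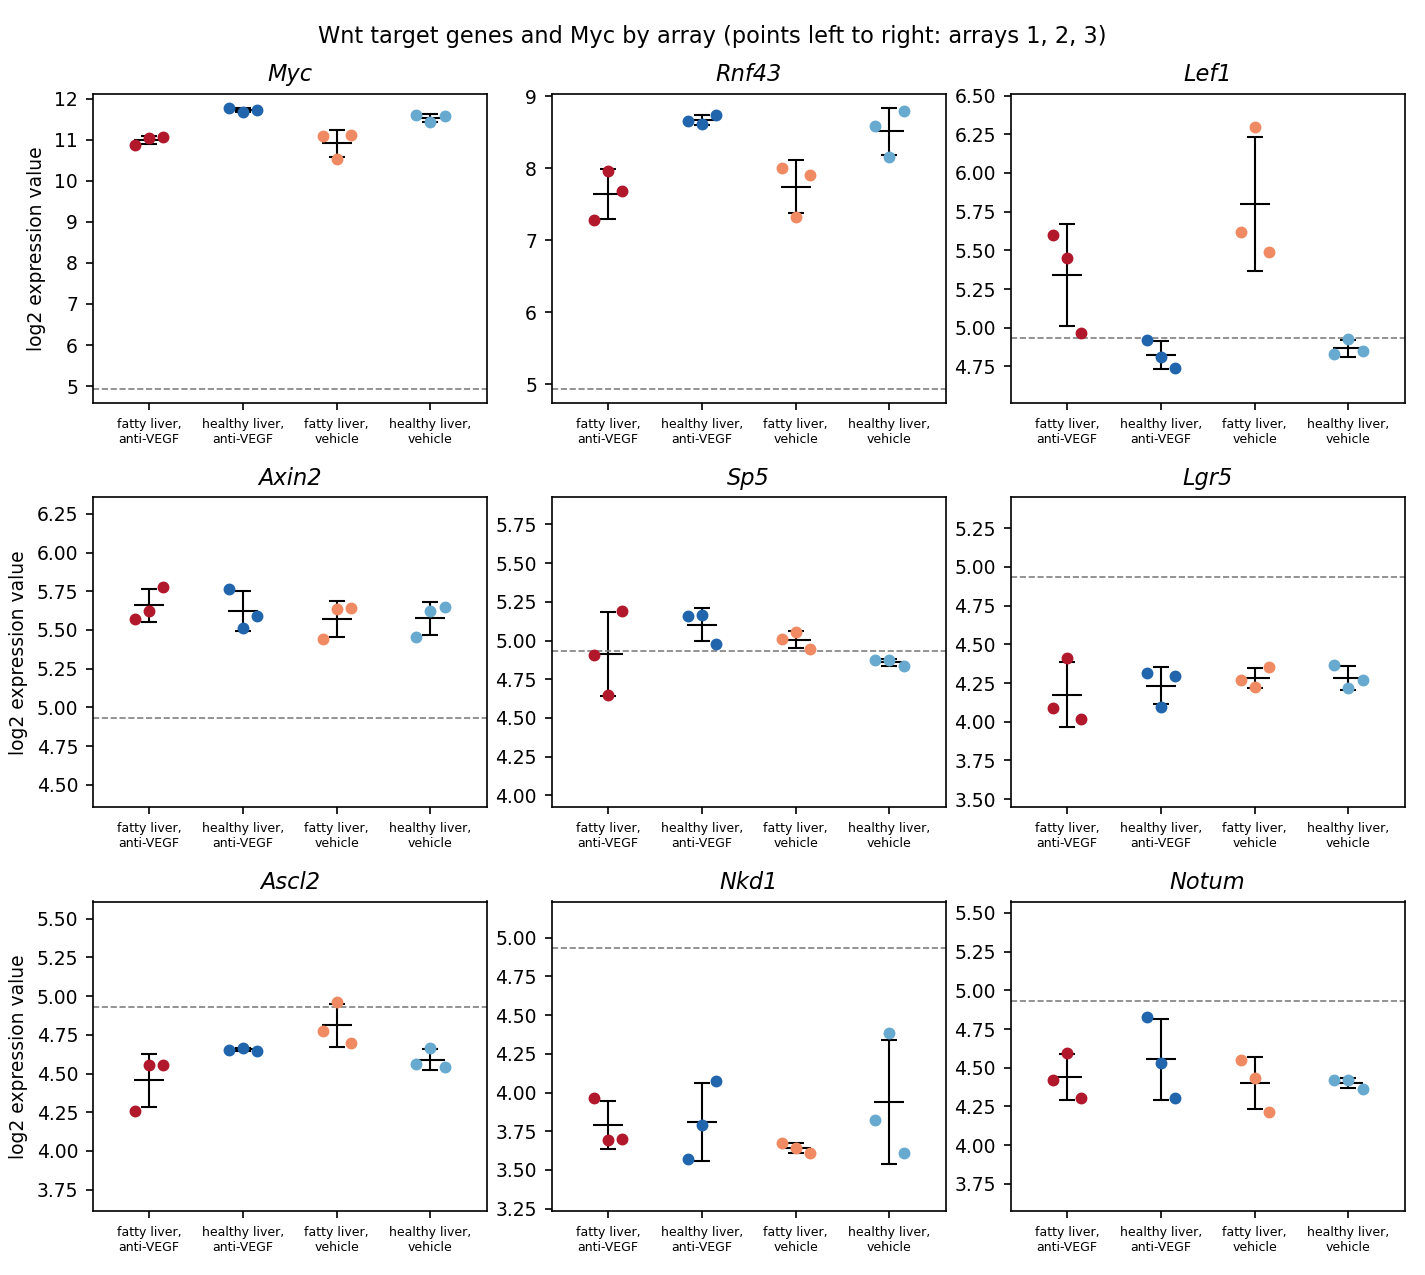
Log2 expression value of the 9 members with a row, 1 panel per gene, on every array of the 4 groups; bars show the mean and SD of 3 arrays and the dashed line the limit of 4.93. Every Myc and Rnf43 point of fatty liver lies below every point of healthy liver, every Lef1 point of fatty liver lies above, and Lgr5, Nkd1 and Notum stay under the limit on all arrays.

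Rnf43 encodes a membrane ubiquitin ligase that removes frizzled receptors from the cell surface and is itself a Wnt target. Under vehicle its level was 7.998, 7.32 and 7.91 in fatty liver tumours, against 8.59, 8.15 and 8.80 in healthy liver tumours. The lowest healthy liver array, vehicle array 2, was still above the highest fatty liver array. The group means were 7.74 ± 0.37 in fatty liver and 8.51 ± 0.33 in healthy liver (SD, n = 3 each). The fall of 0.77 (moderated standard error, SE, 0.23; 95% confidence interval -1.27 to -0.27) corresponds to a fold of 0.587 and passed in limma (adjusted p = 0.017). Leaving out 1 array ended the call for vehicle array 1 or 3 of healthy liver (adjusted p = 0.0556 and 0.0709) and for vehicle array 2 of fatty liver (0.0692).

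Under anti-VEGF, Rnf43 was at 7.28, 7.97 and 7.68 in fatty liver tumours, against 8.65, 8.61 and 8.74 in healthy liver tumours. No array of one liver reached the range of the other. The means were 7.64 ± 0.35 in fatty liver and 8.67 ± 0.07 in healthy liver, a fold of 0.490 (log2 difference -1.03, SE 0.23, adjusted p = 0.00499 in limma). Ordered by mean, Rnf43 was highest in healthy liver under anti-VEGF, then in healthy liver under vehicle, then in fatty liver under vehicle and lowest in fatty liver under anti-VEGF. Within each liver the treatment groups overlapped, and the step in that order lay between the livers.

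Lgr5, the R-spondin receptor that marks intestinal stem cells, stayed below the limit on all 12 arrays, between 4.02 and 4.41. Its other row, which has a lower mean, was at 5.47 on vehicle array 2 of healthy liver, the array with high endothelial transcripts, and at 4.32 or lower on the other 11. In a fit with no filter on low values the Lgr5 difference between fatty and healthy liver was -0.00086 under vehicle and -0.06 under anti-VEGF, with adjusted p of 0.997 and 0.766 in limma. At these levels a difference in Lgr5 was not detectable.

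Axin2 encodes the axin scaffold that Wnt signalling induces and that rebuilds the destruction complex. It was above the limit on all 12 arrays. Under vehicle it was at 5.44, 5.63 and 5.64 in fatty liver tumours, against 5.45, 5.63 and 5.65 in healthy liver tumours. The ranges of the livers nearly coincided. The log2 difference was -0.0039 (95% confidence interval -0.23 to 0.22, adjusted p = 0.978 in limma). Under anti-VEGF Axin2 was at 5.57, 5.63 and 5.78 in fatty liver tumours, against 5.76, 5.51 and 5.59 in healthy liver tumours. Here too the ranges overlapped, with a difference of 0.04 (interval -0.19 to 0.26, adjusted p = 0.784). These intervals leave out the differences measured for Myc and Rnf43. Axin2, at 5.44 to 5.78, lay nearer the limit than those genes, and a difference at such levels can be understated. The second Axin2 row, between 4.58 and 5.51, was highest on vehicle array 2 of healthy liver.

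Nkd1, which binds dishevelled and inhibits the pathway, lay below the limit on all 12 arrays, between 3.57 and 4.39, with its highest value on vehicle array 2 of healthy liver. Notum, a secreted enzyme that strips the lipid from Wnt proteins, also lay below it on all 12 arrays, between 4.22 and 4.83 in its brighter row. Neither passed in the fit with no filter on low values.

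Lef1, one of the TCF/LEF factors and a target of the pathway, crossed the limit on all 6 fatty liver arrays and on none of the 6 healthy liver arrays. It was thus tested only through its fatty liver values, and such a filter favours a rise there. Under vehicle it was at 5.62, 6.29 and 5.49 in fatty liver tumours, against 4.83, 4.93 and 4.85 in healthy liver tumours. Every fatty liver array was above every healthy liver array, and array 2 was the highest of each group. The means were 5.80 ± 0.43 in fatty liver and 4.87 ± 0.05 in healthy liver (SD, n = 3 each). Lef1 rose by 0.93 (SE 0.21; 95% confidence interval 0.47 to 1.39), a fold of 1.91, with an adjusted p of 0.00495 in limma. Since the healthy liver values lie at or below the limit, this fold can understate the difference.

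Under anti-VEGF, Lef1 was at 5.60, 5.45 and 4.97 in fatty liver tumours, against 4.92, 4.81 and 4.74 in healthy liver tumours. The groups did not overlap, but array 3 of fatty liver lay within 0.1 of the highest healthy liver array. The difference of 0.52 (interval 0.06 to 0.98) did not pass, with an adjusted p of 0.0625 in limma. Without anti-VEGF array 3 of fatty liver it was 0.70 and passed (adjusted p = 0.0143). Without vehicle array 2 of fatty liver, which enters only the shared estimate of spread, it passed as well (adjusted p = 0.0181), as it did with the replicate number as a block (0.0405).

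Transcripts of T and NK cells moved with Lef1. The list of 21 T cell markers, which holds neither Lef1 nor Tcf7, had 15 tested genes. Under vehicle 13 of the 15 rose in fatty liver, 86.7% against 19.2% of all tested genes, with a median difference of 1.90. Under anti-VEGF 10 of the 15 rose, 66.7% against 18.2% of all tested genes, with a median of 1.09. Without anti-VEGF array 3 of fatty liver 14 of 15 rose. Without anti-VEGF array 1 or 2 of either liver 6 rose. The mean of the list was 7.57, 8.11 and 7.55 on the vehicle arrays of fatty liver, against 5.53, 6.23 and 5.55 on those of healthy liver. On the anti-VEGF arrays it was 7.51, 7.53 and 6.04 in fatty liver, against 5.56, 5.51 and 5.58 in healthy liver. The fatty liver array lowest in T cell markers, anti-VEGF array 3, was thus also the lowest in Lef1, and the highest, vehicle array 2, the highest in Lef1. With nearly alike arrays averaged, 3 of the 15 rose under vehicle and 1 under anti-VEGF, and 3 rose under vehicle with the 4 arrays high in Xist left out. Of 11 NK cell markers 9 were tested, and all 9 rose under vehicle, against 19.2% of all tested genes, with a median difference of 3.67. Under anti-VEGF 6 of the 9 rose, 66.7% against 18.2% of all tested genes, with a median of 2.32. Ncr1 passed the filter only through fatty liver, above the limit on 5 arrays, and was at 4.25 to 4.78 in healthy liver. Lef1 too passed it only through fatty liver. The filter favours rises in such genes, so these counts are partly set by it. The NK cell list mean was 8.39 to 8.83 on the vehicle arrays of fatty liver, against 5.01 to 5.59 on those of healthy liver. On the anti-VEGF arrays it was 5.26 to 8.48 in fatty liver, against 4.82 to 5.07 in healthy liver. The NK count was 0 under either treatment with nearly alike arrays averaged, and with the arrays high in Xist left out it was 0 under vehicle and 2 under anti-VEGF. Under anti-VEGF it was 9 without array 3 of fatty liver and 3 without array 1 or 2. A single T cell marker was below the limit on every array. Cd3e, which encodes a chain of the T cell receptor complex, was above it on all 12. On the vehicle arrays Cd3e was at 9.03, 9.92 and 8.98 in fatty liver, against 6.35, 7.34 and 6.19 in healthy liver. The part of T and NK cells in the Lef1 difference was not tested. In bulk tissue, fewer cells of a type and less RNA per cell cannot be told apart.

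**Figure D2:**
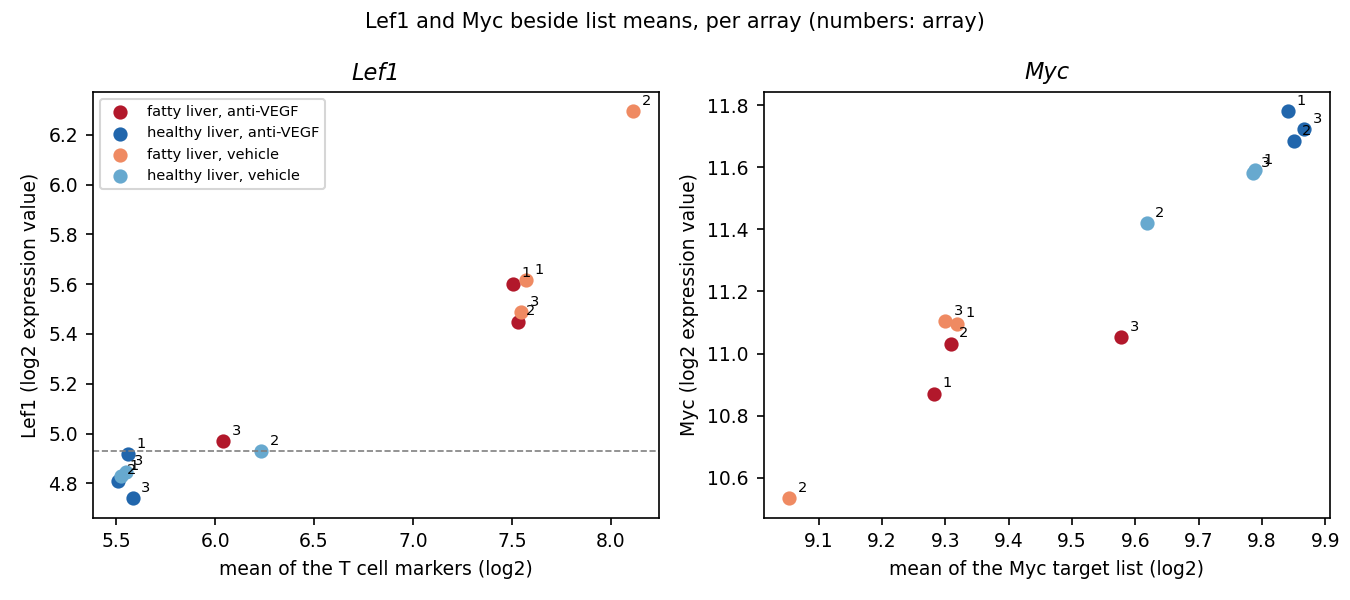
Lef1 against the mean of the T cell markers (left) and Myc against the mean of the Myc target list (right), both axes in log2 expression values, 1 point per array with its number. Lef1 is highest on vehicle array 2 of fatty liver and near the dashed limit of 4.93 on anti-VEGF array 3 of fatty liver, where the T cell mean is 6.04. All Myc points of fatty liver lie below those of healthy liver.

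Sp5, a transcription factor of the Sp family that Wnt signalling induces directly, lay close to the limit, above it on 7 arrays. Under vehicle it was at 5.01, 5.06 and 4.95 in fatty liver tumours, against 4.87, 4.87 and 4.84 in healthy liver tumours. The groups did not overlap, yet the difference of 0.14 (95% confidence interval -0.13 to 0.41) did not pass (adjusted p = 0.35 in limma). Under anti-VEGF Sp5 was at 4.90, 4.65 and 5.19 in fatty liver tumours, against 5.16, 5.17 and 4.98 in healthy liver tumours. Those groups overlapped, and the difference was -0.19 (adjusted p = 0.224). Without anti-VEGF array 3 of fatty liver it was -0.33 with an adjusted p of 0.0166.

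Ascl2, a basic helix-loop-helix factor of intestinal stem cells, exceeded the limit on 1 array only. Under vehicle it was at 4.77, 4.96 and 4.70 in fatty liver tumours, against 4.56, 4.67 and 4.54 in healthy liver tumours. Under anti-VEGF it was at 4.26, 4.56 and 4.56 in fatty liver tumours, against 4.66, 4.67 and 4.65 in healthy liver tumours. The groups did not overlap in either comparison, and their order was opposite under the treatments. In the fit with no filter on low values the differences were 0.22 under vehicle and -0.20 under anti-VEGF (adjusted p = 0.14 and 0.191 in limma).

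Counted over the 9 members with a row, the arrays of fatty and healthy liver did not overlap for 5 under vehicle (Myc, Lef1, Sp5, Rnf43 and Ascl2) and for 4 under anti-VEGF (Myc, Lef1, Rnf43 and Ascl2). Among tested genes those counts were 4 of 5 and 3 of 5. Of all tested genes, the arrays did not overlap for 60.8% under vehicle and 58.5% under anti-VEGF.

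Myc, the transcription factor that raises ribosome and nucleotide synthesis, was strongly above the limit on every array. Under vehicle it was at 11.10, 10.53 and 11.10 in fatty liver tumours, against 11.59, 11.42 and 11.58 in healthy liver tumours. All fatty liver arrays lay below all healthy liver arrays, with array 2 lowest in each group. The means were 10.91 ± 0.33 in fatty liver and 11.53 ± 0.10 in healthy liver (SD, n = 3 each). Myc fell by 0.62 (SE 0.14; 95% confidence interval -0.93 to -0.31), a fold of 0.651, with an adjusted p of 0.0056 in limma.

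Under anti-VEGF, Myc was at 10.87, 11.03 and 11.05 in fatty liver tumours, against 11.78, 11.68 and 11.72 in healthy liver tumours. The gap between the groups was wider than either group's range. The means were 10.99 ± 0.10 in fatty liver and 11.73 ± 0.05 in healthy liver. The difference was -0.74 (SE 0.14, interval -1.06 to -0.43), a fold of 0.598, with an adjusted p of 0.00238 in limma. By mean, the order was healthy liver under anti-VEGF, healthy liver under vehicle, fatty liver under anti-VEGF and fatty liver under vehicle. The fatty liver groups overlapped each other. Those of healthy liver did not, but their difference did not pass.

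**Figure D3:**
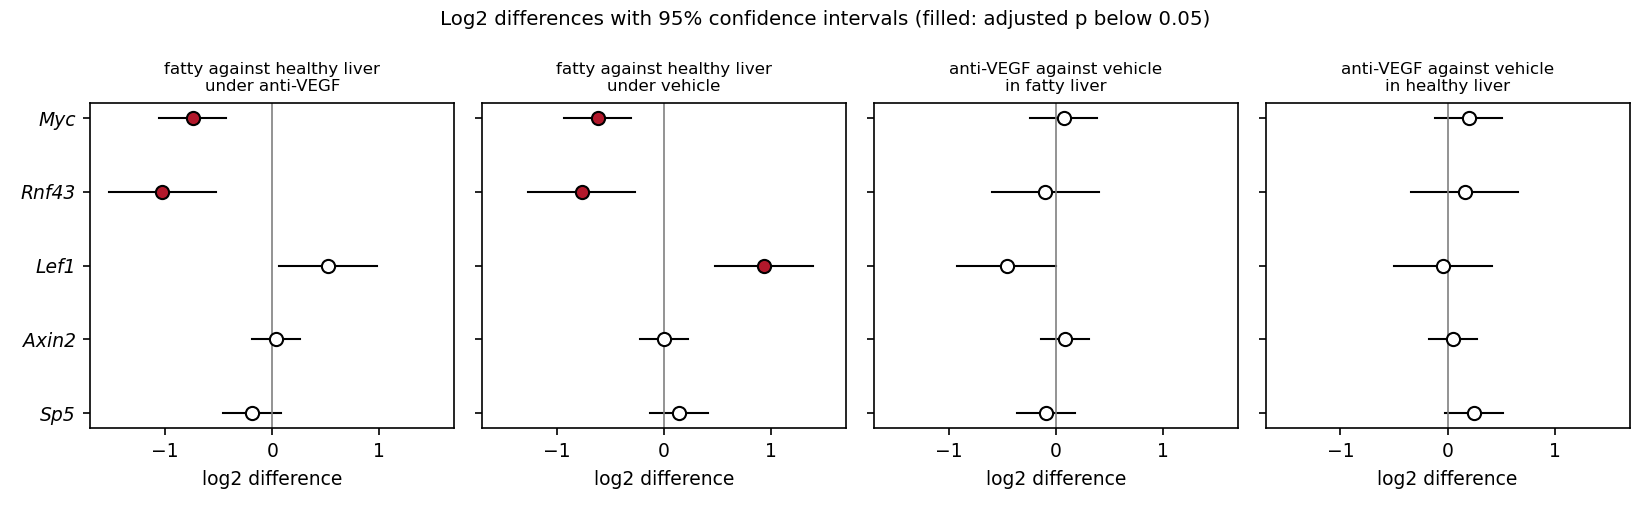
Log2 differences of the 5 tested members with 95% confidence intervals from limma, in 4 comparisons; filled points passed an adjusted p of 0.05. Myc and Rnf43 are filled in both comparisons of fatty with healthy liver, Lef1 only under vehicle, where it is 0.93, and no point is filled in the comparisons of anti-VEGF with vehicle.

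Genes known as Myc targets were mostly lower in fatty liver as well. Of the 36 tested genes of a list of 38 targets, 29 fell and 1 rose under vehicle. That is 80.6% lower, against 30.4% of all tested genes, with a median difference of -0.56, against -0.12 for all. Under anti-VEGF 30 fell and 1 rose, 83.3% lower against 27.6% of all tested genes. The median was -0.49, against -0.13 for all. The risers were Eif4a1, a translation helicase, under vehicle (0.27) and Ldha, lactate dehydrogenase, under anti-VEGF (0.40), both named after their values were seen. Named by smallest p were Rrp9 and Nop16, which act in ribosome assembly. Rrp9 fell by 0.79 under vehicle and by 0.77 under anti-VEGF, and Nop16 fell by 0.72 and by 0.78. Under vehicle Slc7a5, an amino acid transporter, fell by 0.59 and Shmt2, an enzyme of one-carbon metabolism, by 0.81. Under anti-VEGF the ribosome genes Ppan and Gnl3 fell by 0.95 and by 0.67. The list mean was 9.32, 9.05 and 9.30 on the vehicle arrays of fatty liver, against 9.79, 9.62 and 9.79 on those of healthy liver. On the anti-VEGF arrays it was 9.28, 9.31 and 9.58 in fatty liver, against 9.84, 9.85 and 9.87 in healthy liver. With nearly alike arrays averaged, 0 targets passed under either treatment in limma. With the 4 vehicle arrays high in Xist left out, 5 targets fell under vehicle (the calls of Rrp9, Slc7a5 and Shmt2 were lost), and without anti-VEGF array 2 of fatty liver 18 fell under anti-VEGF.

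Transcripts of other lists were compared between the livers as well. Of 21 tested cell cycle genes, 17 fell under vehicle, 81.0% against 30.4% of all tested genes. Under anti-VEGF 4 fell, 19.0% against 27.6% of all tested genes, or 18 without array 3 of fatty liver. The cell cycle list thus moved with Myc and Rnf43 under vehicle, but not beyond the share of all genes under anti-VEGF. Under vehicle the count was 11 without vehicle array 1 of healthy liver and 9 without vehicle array 2 of fatty liver. Under anti-VEGF it was 2 without any of the healthy liver anti-VEGF arrays and 1 without array 1 or 2 of fatty liver. It was 14 under anti-VEGF with arrays centred on their median, 0 under either treatment with nearly alike arrays averaged, and 0 under vehicle with the arrays high in Xist left out. On anti-VEGF array 3 of fatty liver the cell cycle list mean was 10.09, against 9.44 and 9.61 on the other anti-VEGF arrays of that liver. On the anti-VEGF arrays of healthy liver it was 10.09 to 10.10. Myc on anti-VEGF array 3 of fatty liver was 11.05, below every healthy liver array, and Rnf43 was 7.68. Of 12 tested macrophage markers 11 rose under each treatment, 91.7% against 19.2% of all tested genes under vehicle and 18.2% under anti-VEGF. With nearly alike arrays averaged 5 rose under vehicle and 7 under anti-VEGF, and 5 rose under vehicle with the arrays high in Xist left out. Their list mean was 11.24 to 11.57 on the anti-VEGF arrays of fatty liver, against 9.29 to 9.32 on those of healthy liver. On the vehicle arrays it was 11.47 to 11.51 in fatty liver, against 9.44 to 10.39 in healthy liver. Of 6 tested epithelial markers, 3 fell and 1 rose under each treatment. The keratin genes Krt8 and Krt18 fell by 0.84 and by 0.88 under vehicle, and fell by 0.87 and by 1.28 under anti-VEGF. Elf3, an epithelial transcription factor, fell by 0.69 under vehicle and by 0.97 under anti-VEGF. Cdh1, the gene of E-cadherin, rose by 2.37 and by 1.61. These epithelial genes were named after their values were seen, and 0 passed with nearly alike arrays averaged. The Cdh1 call under anti-VEGF was also lost without array 2 or 3 of healthy liver or array 1 or 2 of fatty liver, and under either treatment with the arrays high in Xist left out. The epithelial list mean was 6.34 to 6.71 on the anti-VEGF arrays of fatty liver, against 6.84 to 6.90 on those of healthy liver, and under vehicle 6.62 to 6.83 in fatty liver, against 6.68 to 6.78 in healthy liver. Of 12 tested fibroblast markers, 5 fell and 0 rose in limma under each treatment. The falls were 41.7%, against 30.4% of all tested genes under vehicle and 27.6% under anti-VEGF. The median difference of this list was -0.98 under vehicle but 0.40 under anti-VEGF. Its mean was 7.91 to 9.05 on the anti-VEGF arrays of fatty liver, against 8.04 to 8.10 on those of healthy liver. On the vehicle arrays it was 7.72 to 8.82 in fatty liver, against 8.14 to 10.25 in healthy liver. With nearly alike arrays averaged 1 fell under vehicle, and under anti-VEGF 1 healthy liver array was left. The part of epithelial, fibroblast, macrophage and dividing cells in the Myc and Rnf43 differences was not tested.

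The network of Myc partners had 13 tested genes, of which 2 rose and 4 fell under vehicle, with a median difference of -0.06. These 15.4% higher and 30.8% lower lie near the 19.2% and 30.4% of all tested genes. Under anti-VEGF the shares were 15.4% and 23.1%, against 18.2% and 27.6%. Mxd1, which pairs with Max and opposes Myc, rose by 2.21 (SE 0.36) under vehicle and by 2.30 under anti-VEGF. On the vehicle arrays it was at 10.83, 11.39 and 10.84 in fatty liver, against 8.51, 9.36 and 8.57 in healthy liver. Pim1, a kinase that cooperates with Myc, rose by 2.03 (SE 0.35) and by 1.93. Under vehicle the calls of Mxd1, Pim1 and Mxd4 were lost with the arrays high in Xist left out. Mxd3 and Mxd4 fell by 0.93 and by 0.53 under vehicle. Mga and Pvt1, a long non-coding RNA gene beside Myc, also passed there, at -0.48 and -0.73. Under anti-VEGF 2 rose and 3 fell, among them Mga by 0.53 and Pvt1 by 0.79; the third was Mxi1, another Max partner (-0.24), named after its values were seen.

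The remaining genes of the Wnt pathway, listed by role, held 120 genes besides the members, of which 79 were tested. Some genes are in more than 1 list, such as Znrf3 and Apcdd1, and are counted once in these totals. Under vehicle 8 rose and 33 fell, 10.1% and 41.8%, with a median difference of -0.25. Under anti-VEGF 6 rose and 26 fell, 7.6% and 32.9%, with a median of -0.17. For all tested genes the percentages are those given above. With nearly alike arrays averaged, Slc12a2 and Zfp703 passed under vehicle and Fzd7 under anti-VEGF, and no other of these genes did. With the 4 vehicle arrays high in Xist left out, at most 1 gene of each of these lists passed in either direction under vehicle. Of the pathway genes named by rule, that setting ended the vehicle calls of Wls, Wnt7b, Wnt9a, Wnt10a, Ryk, Fzd7, Znrf3, Lgr4, Apcdd1, Tcf7l1, Btrc, Dvl3, Cdca7 and Met, and the anti-VEGF calls of Wls, Wnt7b and Wnt9a.

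**Figure D4:**
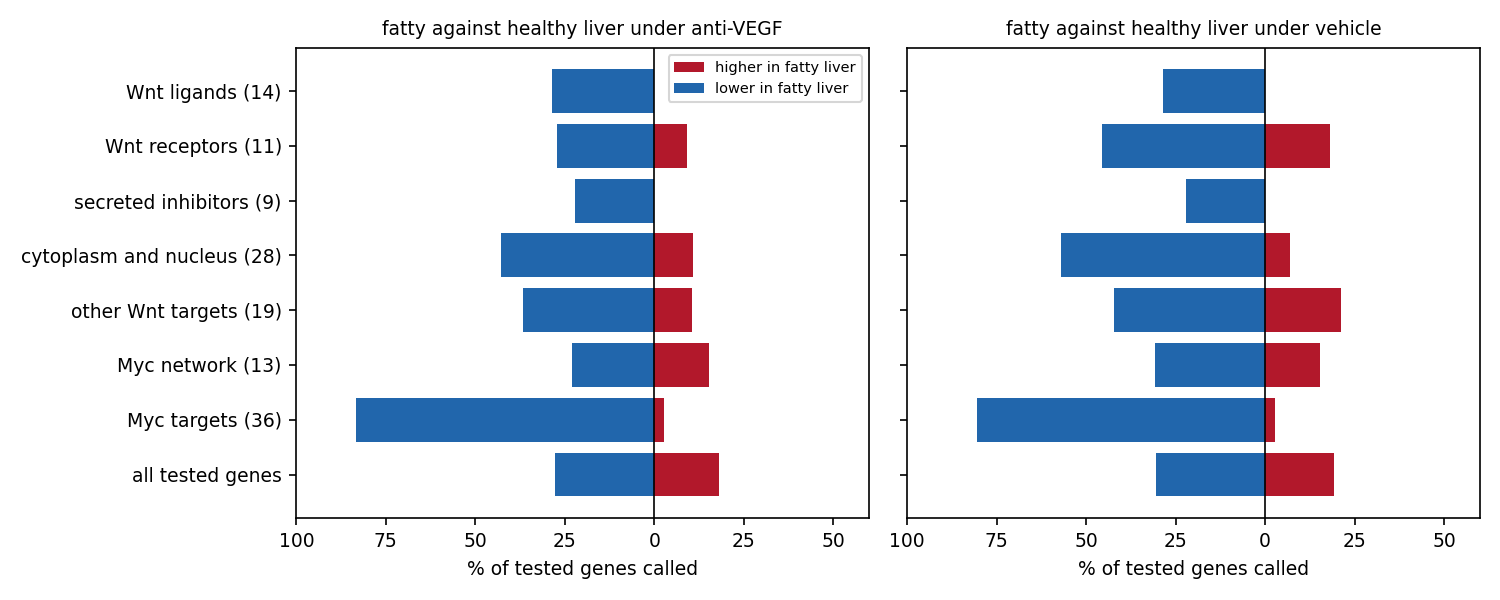
Percentage of tested genes of each list that were called higher (right of 0) or lower (left of 0) in fatty than in healthy liver, under anti-VEGF and under vehicle, with the number tested in parentheses and all tested genes in the bottom row. Among the lists shown, the Myc targets have the largest share lower, 83.3% under anti-VEGF and 80.6% under vehicle. The cell cycle list, not shown, had 19.0% lower under anti-VEGF and 81.0% under vehicle.

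Among the ligands and the genes that secrete or boost them, 0 rose and 4 of 14 fell under each treatment in limma. These 28.6% lie near the share of all tested genes that fell, 30.4% under vehicle and 27.6% under anti-VEGF. Wls, the carrier that brings Wnt proteins to the surface, fell by 0.32 under vehicle and by 0.28 under anti-VEGF. Wnt7b fell by 0.91 (SE 0.25) and by 0.78, and Wnt9a by 0.57 and by 0.55. Wnt10a fell by 0.65 under anti-VEGF. Its fall of 0.27 under vehicle had an adjusted p of 0.0471, and it was called in 8 of 24 alternative settings. The count under vehicle was 1 without vehicle array 1 or 3 of healthy liver or array 2 of fatty liver, and 2 without array 3 of fatty liver. Under anti-VEGF it was 2 without any of the healthy liver anti-VEGF arrays or without array 1 or 2 of fatty liver.

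Of the 11 tested receptors, 2 rose and 5 fell under vehicle, and 1 rose and 3 fell under anti-VEGF. The falls were 45.5% under vehicle, against 30.4% of all tested genes, and 27.3% under anti-VEGF, against 27.6%. Fzd7, a frizzled receptor, was at 7.55, 7.78 and 7.37 on the vehicle arrays of fatty liver, against 5.98, 6.95 and 5.57 on those of healthy liver. It rose by 1.40 (SE 0.30). On the anti-VEGF arrays it was at 7.27, 7.85 and 7.77 in fatty liver, against 5.38, 5.18 and 5.15 in healthy liver, a rise of 2.39 (SE 0.30). The groups did not overlap under either treatment. Znrf3, the close relative of Rnf43 with the same action on frizzled receptors, fell by 0.99 (SE 0.22) under vehicle and by 0.83 under anti-VEGF. Lgr4, a receptor for R-spondins like Lgr5, fell by 0.79 and by 0.86, and Ryk, a Wnt receptor related to tyrosine kinases, fell by 1.13 and by 0.77. The other receptors called under vehicle, named after their values were seen, were Fzd5 (0.37) and the co-receptors Lrp5 (-0.57) and Lrp6 (-0.44). The count of falls was 3 under vehicle without vehicle array 1 of healthy or array 2 of fatty liver, and 5 under anti-VEGF without array 3 of fatty liver.

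Of the 9 tested secreted or membrane inhibitors, 2 fell and 0 rose under each treatment. These 22.2% lie below the share of all tested genes that fell, 30.4% under vehicle and 27.6% under anti-VEGF. Apcdd1, a membrane protein that blocks Wnt binding, fell by 0.99 (SE 0.20) under vehicle and by 0.81 under anti-VEGF. Kremen1, a receptor for the Dkk inhibitors, fell by 0.48 under vehicle, and Dkk2 fell by 1.36 (SE 0.35) under anti-VEGF.

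In the cytoplasm and nucleus, 16 of 28 genes fell and 2 rose under vehicle, with a median of -0.34. Under anti-VEGF 12 fell and 3 rose, with a median of -0.28. The falls were 57.1% under vehicle, against 30.4% of all tested genes, and 42.9% under anti-VEGF, against 27.6%. Tcf7l1, a TCF factor that mostly represses, fell by 1.32 (SE 0.21) under vehicle and by 0.82 under anti-VEGF. On the vehicle arrays it was at 7.52, 7.10 and 7.43 in fatty liver, against 8.66, 8.58 and 8.76 in healthy liver. Tle4, a co-repressor bound by TCF factors, rose by 0.57 (SE 0.11) and by 0.84. Btrc, which marks β-catenin for degradation, and Dvl3, a dishevelled protein, fell by 0.54 and by 0.49 under vehicle. Pygo2, a nuclear cofactor of β-catenin, and Usp34, which stabilises axin, fell by 0.64 and by 0.47 under anti-VEGF. The other risers, named after their values were seen, were Tle3 under vehicle (0.41), and Tcf7l2 (0.38) and Ctnnbip1 (0.32) under anti-VEGF. The β-catenin gene Ctnnb1, also named after its values were seen, fell by 0.38 under vehicle. The falls numbered 9 under vehicle without vehicle array 1 of healthy liver. Under anti-VEGF they numbered 7 without anti-VEGF array 1 or 3 of healthy liver and 5 without array 1 or 2 of fatty liver.

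Among 19 other tested Wnt targets, Znrf3 and Apcdd1 included, 4 rose and 8 fell under vehicle, and 2 rose and 7 fell under anti-VEGF. Under vehicle that is 21.1% higher and 42.1% lower, against 19.2% and 30.4% of all tested genes. Under anti-VEGF it is 10.5% higher and 36.8% lower, against 18.2% and 27.6%. Slc12a2, a sodium, potassium and chloride transporter, was at 8.27, 8.11 and 8.24 on the vehicle arrays of fatty liver, against 9.42, 9.34 and 9.34 on those of healthy liver. It fell by 1.16 (SE 0.11), and by 0.89 under anti-VEGF. Zfp703, a zinc finger factor, moved the other way, by 1.44 (SE 0.20) and 1.56. Cdca7 fell by 0.82 under vehicle and by 0.73 under anti-VEGF, and Met, the receptor for hepatocyte growth factor, by 0.65 and by 0.68. The other risers, named after their values were seen, were Id2 under both treatments (1.14 and 1.22), and Vegfa (0.43) and Plaur (0.59) under vehicle. Without vehicle array 2 of fatty liver 2 rose under vehicle.

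Anti-VEGF against vehicle moved no member past the threshold in either liver. In healthy liver 0 of 5 tested members passed in limma and 0 had an unadjusted p under 0.05, with 0% of all tested genes called and 1118 genes at that unadjusted level. In fatty liver 0 of 5 passed and 1, Lef1, had an unadjusted p under 0.05, with 0.00753% of all tested genes called, that is 1 gene, and 778 at the unadjusted level. The 1 gene called, Klk1b11, belongs to a family of near-identical kallikreins whose probes may share signal, and was named after its values were seen. These comparisons share their arrays with those between livers. In fatty liver Lef1 was at 5.60, 5.45 and 4.97 under anti-VEGF, against 5.62, 6.29 and 5.49 under vehicle, and the groups overlapped. The difference was -0.46 (interval -0.92 to -0.00069, unadjusted p from limma 0.0497, adjusted p = 0.795).

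In healthy liver the Myc values under anti-VEGF, all at 11.68 or above, exceeded the vehicle values, all at 11.59 or below. The difference was 0.20 (95% confidence interval -0.11 to 0.51, adjusted p = 0.778 in limma). Sp5 also did not overlap there, with a difference of 0.24 (interval -0.03 to 0.51, adjusted p = 0.64). These are 2 of the 5 tested members, and the count over the 9 members with a row is also 2. Of all tested genes, the healthy liver arrays did not overlap between treatments for 24.8%. In fatty liver the arrays did not overlap for 2 members, Ascl2 and Nkd1, neither of them tested, where 8.06% of all tested genes did not. For Myc in fatty liver the interval was -0.24 to 0.39 around 0.07, and for Rnf43 -0.60 to 0.40 around -0.10. For Rnf43 in healthy liver it was -0.34 to 0.66 around 0.16, and none of these 4 intervals for Myc and Rnf43 reached the size of that gene's difference between livers under vehicle.

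The difference between livers did not pass a test of dependence on treatment for any member. The interaction term of liver and treatment was -0.12 for Myc, -0.26 for Rnf43, -0.41 for Lef1 (95% confidence interval -1.06 to 0.24), 0.04 for Axin2 and -0.33 for Sp5 (interval -0.72 to 0.05). Adjusted p-values from limma were 0.969 or higher, 0 members had an unadjusted p under 0.05, and 0% of all tested genes were called, with 677 at that unadjusted level. The call of Lef1 under vehicle and its absence under anti-VEGF is therefore no measured difference between the treatments. Of the 79 other Wnt genes, 0 passed in limma in the treatment comparisons or the interaction. At an unadjusted p under 0.05 there were 8 in healthy liver, 2 in fatty liver and 6 in the interaction.

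The genes whose pattern over the 12 arrays was most like that of a member were picked by Pearson's r, as a description, since the arrays share the step between livers. For Myc they were Tpm1 (r = 0.990), Gnl3 (0.988) and Snora23 (0.987). Gnl3 is also in the Myc target list. For Rnf43 they were Dppa2 (0.985), Ola1 (0.983) and Mgst3 (0.981). For Lef1 they were Fasl, the ligand of a death receptor made by cytotoxic lymphocytes (0.979), Tspo (0.979) and Zap70, a kinase of T cell receptor signalling that is in the T cell list (0.973). The closest for Axin2 was Bsx (0.857) and for Sp5 Kif5b (0.846), lower values than for the members that separated the livers.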

How the data were processed

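Total RNA from mouse tumour tissue was labelled with biotin and measured on 12 single-colour Affymetrix arrays, per the labels' protocols. Affymetrix Expression Console is the tool in the submitters' processing notes. Its version, the normalization and the build are not given in any source used here. The deposited values are on a log2 scale by their range, 1.82 to 14.46, and the number of arrays limits the precision. They were used without further normalization.

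Of 41345 rows, 23521 carry 1 gene symbol in the annotation supplied, 1814 several and 16010 none. Only rows with 1 symbol were used, and 23328 of them matched a RefSeq gene number with 0 symbols changed. A gene with more than 1 row (1082 genes) was represented by its brightest row, by mean of the 12 arrays.

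One limma model (version 3.58.1, R 4.3.3) fitted all 12 arrays (group means, lmFit, eBayes) and had 8 residual and 2.40 prior degrees of freedom. Adjusted p-values are Benjamini-Hochberg over the 13286 tested genes, with a threshold of 0.05. P-values measure the spread between these arrays, and the nearly alike arrays were counted as replicates as labelled. The members, lists, naming rule and tests were chosen with earlier results of these data known. Genes of a list are named by smallest p, up to 4 per list and comparison.

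Same-numbered arrays deviated together only between the fatty and healthy vehicle groups, where every pair correlated above 0.1 (0.536, 0.701 and 0.549). In both of these groups arrays 1 and 3 were nearly alike and array 2 stood apart, so these correlations largely repeat the same contrast. They cannot tell whether same-numbered arrays were matched, and no label states a pairing. Alternatives were the filter, the choice of row, quantile normalization, median centring, a replicate block, averaging of nearly alike arrays, array weights, other eBayes settings, fewer groups, and leaving out arrays. Leaving out vehicle array 2 of healthy liver together with anti-VEGF array 3 of fatty liver was chosen after seeing the data. Promoter windows are from RefSeq.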

Additional observations from a re-analysis of the deposited data

How the results depend on the processing

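Of the member calls, only averaging nearly alike arrays ended all: 0 members passed under vehicle (adjusted p for Myc 0.0919, Lef1 0.086, Rnf43 0.151) and 0 under anti-VEGF (Myc 0.153, Rnf43 0.184), with 1 healthy liver anti-VEGF array left, assumed to vary like the other groups. It also left 0 Myc targets and 0 cell cycle genes called lower under either treatment. Of the Wnt and Myc genes named by rule Slc12a2 and Zfp703 under vehicle and Fzd7 under anti-VEGF were called in all 24 alternatives. Without the vehicle arrays high in Xist, Rnf43 did not pass under vehicle (adjusted p = 0.13). With array weights 4 members passed under anti-VEGF and 1, Sp5, in each treatment comparison and in the interaction. That setting called 74.4% of all tested genes under anti-VEGF, 12.5% with treatment in healthy and 13.9% in fatty liver, and 11.1% in the interaction. Without vehicle array 2 of healthy and anti-VEGF array 3 of fatty liver, chosen after seeing the data, 4 passed under anti-VEGF. Leaving out 1 array gave 2 to 3 members under vehicle, 2 to 4 under anti-VEGF and 0 otherwise. With the replicate block 3 passed under each treatment. The fit of only the groups compared gives no interaction.

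Signs turned only for differences that did not pass in the reported fit. For Axin2 between livers they turned to 0.0486 (median centring), 0.0508 (array weights), 0.00883 (without the arrays high in Xist) and 0.0214 (without the pair of arrays that stand apart) under vehicle. Under anti-VEGF they turned to -0.0536 (mean of rows), -0.082 (quantile) and -0.0236 (without that pair). For Axin2 with treatment they turned to -0.0653 (mean of rows) and -0.00335 (without the arrays high in Xist) in healthy liver and -0.00554 (mean of rows) in fatty liver. The Axin2 interaction turned to -0.00812 (quantile), -0.0463 (centring), -0.0414 (weights) and -0.045 (without that pair). Lef1 in healthy liver turned to 0.0196 (centring). In fatty liver Rnf43 turned to 0.0051 (averaging), 0.0218 (weights) and 0.321 (without the arrays high in Xist), and Myc to -0.0506 (weights). Without that pair Rnf43 turned to -0.0209 in healthy liver. The interaction turned to 0.0168 for Rnf43 (weights) and 0.143 for Myc (without the arrays high in Xist). With 1 array left out, Axin2 ranged from -0.0651 to 0.0618 between livers under vehicle and from -0.0236 to 0.108 under anti-VEGF. It ranged from -0.0239 to 0.103 with treatment in healthy liver and from -0.0249 to 0.112 in the interaction. With treatment, Rnf43 ranged from -0.0209 to 0.303 in healthy liver. In fatty liver it ranged from -0.31 to 0.0827, Myc from -0.115 to 0.171 and Sp5 from -0.23 to 0.0431. Why these moved was not tested.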
